A study of Mus musculus with 170 samples.

Results

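Tropomyosins, caldesmon and the smooth muscle contractile genes were examined in single cells of the E9.5 mouse ventricle. The 10 genes are *Tpm1*, *Tpm2*, *Tpm3*, *Tpm4*, *Cald1*, *Tagln*, *Cnn1*, *Cnn2*, *Myl9* and *Mylk*, out of 40549 gene rows in the expression table. They were selected on levels measured in these same cells, so the differences between the genotypes given for them are descriptions. Control hearts, labelled wild type, were Dgcr8 loxP/loxP; ROSA26 mT/mG/+ without Cre, and conditional knockout (cKO) hearts were Mesp1Cre/+; Dgcr8 loxP/loxP; ROSA26 mT/mG/+, labelled Mesp1Cre/+; Dgcr8-/-. All embryos were C57BL/6 at embryonic day 9.5. Mesp1-Cre acts in mesoderm progenitors that form heart muscle and also other cell types, so deletion is not limited to cardiomyocytes (CMs). *Dgcr8* encodes a subunit of the Microprocessor, the complex that cuts microRNA hairpins out of their primary transcripts, and its loss removes most mature microRNAs. The table holds 74 control and 69 cKO cells, each sequenced in 1 of 2 batches named in the sample titles. The labels name no embryo, so each genotype counted as 1 sample and its cells as repeated draws from that sample. For that reason the genotypes are compared without any test.

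Tropomyosins are coiled-coil proteins that lie along actin filaments and set which proteins can reach actin. In striated muscle they hold the troponin complex and move aside when calcium binds, whereas in smooth muscle and non-muscle cells they work without troponin. Caldesmon, calponin and transgelin (SM22-alpha) bind actin in smooth muscle, where the switch for contraction is phosphorylation of the myosin regulatory light chain by myosin light chain kinase. Several of these genes are transiently transcribed in the embryonic heart before they become largely restricted to smooth muscle. Serum response factor (SRF), which with its cofactor myocardin drives many of them, binds the CArG box, a short motif made of 2 C, 6 A or T and 2 G.

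Because CArG boxes link many smooth muscle genes to SRF, the promoters were searched for them. RefSeq promoter windows of 300 bases, from 250 before to 50 after a start site (GRCm38.p6), matched 9 of the 10 genes with 11 windows. *Tagln* had no matched window. The motif, which the search of both strands finds at the same positions, was held by 2 of the 11 windows and by 1.63% of all 32851 windows in the table. The windows that held it are shown on the strand of the gene with the box in capitals.
Cnn2: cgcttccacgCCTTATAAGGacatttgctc
Myl9: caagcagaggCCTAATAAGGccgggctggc
The *Cnn2* stretch lies at chr10:79988534-79988563 on the plus strand, and its box begins 56 bases before the start site. For *Myl9* the stretch is chr2:156775293-156775322 on the plus strand, with the box 161 bases before the start site. The 9 windows of the other 7 genes held no such letters, which says nothing of boxes elsewhere in those genes. One microRNA that the study returned to cKO cells, miR-541-5p, was also compared with the genes. Its mature sequence (RefSeq, GRCm38.p6, chr12:109742422-109742446) is shown with the seed, bases 2 to 8, in capitals.
miR-541-5p: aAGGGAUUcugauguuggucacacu
No complement of this seed was present in the longest annotated 3′ UTR of any of the 10 genes, whereas 8.09% of 21022 protein-coding genes held at least 1.

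In mm10 with GENCODE annotation, the tropomyosin genes lie at chr9:67022590-67049406 (*Tpm1*, minus strand), chr4:43514711-43523765 (*Tpm2*, minus), chr3:90072649-90100902 (*Tpm3*, plus) and chr8:72134975-72153142 (*Tpm4*, plus). *Cald1* lies at chr6:34598500-34775473 (plus), *Tagln* at chr9:45929619-45936058 (minus), *Cnn1* at chr9:22099216-22109630 (plus) and *Cnn2* at chr10:79988584-79996062 (plus). *Myl9* occupies chr2:156775420-156781658 (plus) and *Mylk* chr16:34745210-35002420 (plus). A value in the table sums all transcripts of a gene, and the annotation lists 21 for *Tpm1*, 16 for *Tpm3* and 18 for *Cald1*, so muscle and non-muscle isoforms of these genes could not be separated. Stretches of 31 bases shared with other genes show where reads could have been divided. Between the tropomyosins themselves these were at most 0.299% of a gene's stretches. *Tpm3* shared 26.9% of them with *Tpm3-rs7*, which had a mean of 0.612 TPM over the CM-like cells, and *Tpm4* shared 16% with a processed pseudogene, Gm7809, that stayed below 1 TPM in every such cell. *Tagln* shared 58.2% with the antisense gene Gm48529, which has no row in the table, so with unstranded Smart-seq2 reads the 2 strands of that stretch cannot be told apart.

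Cells were sorted into classes with 55 markers, none of them among the 10 genes. The CM-like cluster held 91 cells, 26 control (18 in batch 1, 8 in batch 2) and 65 cKO (32 and 33), with 15 of 15 cardiomyocyte markers raised. The other clusters were endothelial-like (22 cells), epicardial-like (13) and erythroid-like (5), all from control hearts, and an unnamed cluster of 8 control and 4 cKO cells in which mitochondrial-genome transcripts took a median of 41.1% of TPM. The epicardial-like cluster also had 8 of 14 mesenchymal markers raised. TPM keeps no sequencing depth. The median number of genes with TPM above 0 was 9309 in control and 8722 in cKO CM-like cells. These medians ran in opposite directions in the batches, 8457 against 9877 in batch 1 and 9704 against 7786 in batch 2. The median share of mitochondrial-genome TPM was higher in control than in cKO CM-like cells of both batches, 6.27% against 3.11% and 6.25% against 2.77%. *Dgcr8* was at 1 TPM or more in 13 of 26 control and 21 of 65 cKO CM-like cells. A gene-level value cannot show the loss of floxed exons, so the label was not checked by it. *Xist* was at 1 TPM or more in 62 of 65 cKO and 0 of 26 control CM-like cells, and *Ddx3y* in 0 of 65 and 18 of 26, so genotype and embryo sex cannot be told apart in these cells.

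Caldesmon, *Tpm2* and *Tpm4* had the widest gaps between the genotypes, and *Tagln*, *Cnn1* and *Cnn2* also lay above control in the CM-like cells of both batches. All differences are of mean log2(TPM + 1). For genes near 0 their size depends on the value added and on how cells are averaged. With 0.1 added in place of 1, *Cald1* differed by 5.12 in place of 4.36. As a log2 ratio of mean TPM plus 1, *Cald1* differed by 3.05 and *Tpm4* by 2.53 in place of 3.47. Every gene of the 10 but *Tpm1* and *Mylk* differed by less in that way. A gene was called higher or lower where the difference reached 1 log2 unit in the same direction in each batch. All 10 genes passed the filter of TPM above 0 in more than 10 CM-like cells. Of these, 6 were called higher (*Tpm2*, *Tpm4*, *Cald1*, *Tagln*, *Cnn1* and *Cnn2*) and 0 lower, beside 3.02% of 14997 genes called higher and 2.81% called lower. Since the genes were chosen from the same contrast, nothing is read from that count. Over the 10 genes the median difference was 1.81 in all cells, 1.93 within batch 1 and 1.75 within batch 2, and over all genes 0.06, 0.19 and -0.17. *Cnn2* was the gene just inside the call, at 1.31 in its smaller batch, and *Tpm3* was just outside at 0.59. Pooled values can lie outside both batch values, because batch 2 held 8 of 26 control but 33 of 65 cKO cells.

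*Tpm1*, the main tropomyosin of heart muscle, was the most abundant of the 10 genes in both genotypes. Its TPM, a scale already divided by transcript length, ran from 2235 through a median of 3536 to 6164 in the control and from 2004 through 5344 to 10386 in the cKO CM-like cells. The ranges overlapped in batch 1, where 7 of 32 cKO cells lay above the highest control cell, and less so in batch 2, where 23 of 33 did. The highest control cell was 1 of 18 in batch 1 but 1 of 8 in batch 2. Such counts, here and for the genes below, are therefore not alike between batches, and their intervals take that cell as fixed. The difference was 0.57 log2 units, 0.33 in batch 1 and 0.79 in batch 2, which did not reach the call.

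*Tpm2*, the beta-tropomyosin of slow skeletal and smooth muscle, was a low transcript in control CM-like cells. It ran from 0 through a median of 17.3 to 208 TPM there, and from 1.57 through 317 to 3474 TPM in the cKO cells. In the cKO cells it was at 1 TPM or more in 65 of 65, against 22 of 26 control cells (84.6%, exact Clopper-Pearson 95% interval from 65.1%, counting error only). The mean was 3.86 ± 2.37 in control and 8.09 ± 1.51 in cKO cells (SD across cells, log2 scale), a difference of 4.23, with 4.01 in batch 1 and 3.99 in batch 2. In batch 2, 32 of 33 cKO cells exceeded the highest control cell, and in batch 1, 17 of 32 did. Among all genes that passed, the smaller batch difference of *Tpm2* ranked 5 from the top.

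*Tpm3*, which supplies both slow-muscle and cytoskeletal tropomyosins, differed less. Control cells ran from 4.13 through 134 to 384 TPM and cKO cells from 25.7 through 258 to 2244 TPM. The pooled difference of 1.49 came from 1.73 in batch 1 and 0.59 in batch 2. Its control mean itself was 5.90 in batch 1 and 7.58 in batch 2, so the batches disagreed mostly in their control cells.

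*Tpm4*, a cytoskeletal tropomyosin, ran from 0 through a median of 99.8 to 319 TPM in control cells and from 22.7 through 665 to 1538 TPM in cKO cells. The difference was 3.47, with 3.71 in batch 1 and 2.98 in batch 2, and 55 of 65 cKO cells (84.6%, interval 73.5% to 92.4%) lay above the highest control cell. No other gene of the 10 had as many cKO cells above the control range. In control CM-like cells *Tpm4* went with the number of detected genes (Pearson's r = 0.71, Spearman's rho = 0.70, n = 26 cells of 1 sample). Among cells with 7000 to 11000 detected genes (22 control, of which 6 in batch 2, and 56 cKO) *Tpm4* was called higher. That window does not match the number of detected genes between the genotypes, and the part of this number in the difference was not tested.

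**Figure D1:**
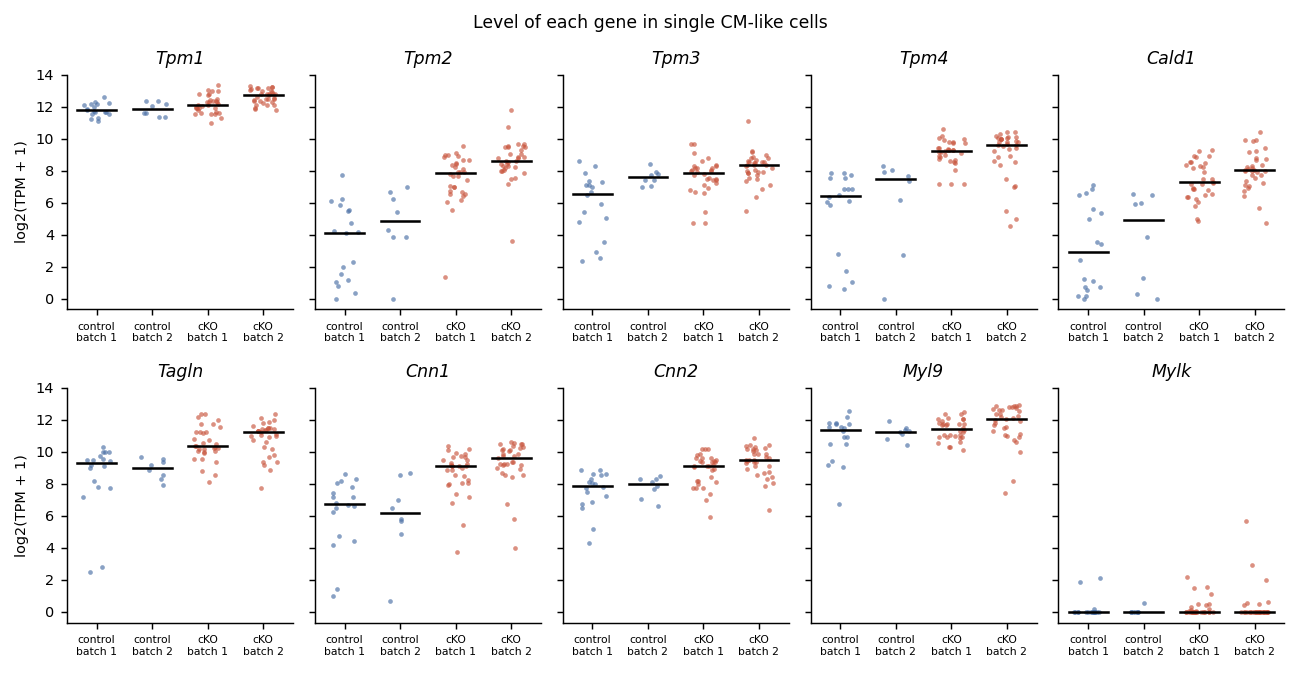
Level of each of the 10 genes in single CM-like cells as log2(TPM + 1), with control cells in blue (18 in batch 1, 8 in batch 2), cKO cells in red (32 and 33) and black bars for medians. The median bars of *Tpm2*, *Tpm4*, *Cald1*, *Tagln*, *Cnn1* and *Cnn2* stand higher in cKO cells of both batches, the points of *Tpm1* and *Myl9* overlap between genotypes, more so in batch 1, and *Mylk* lies near 0.

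The make-up of tropomyosin mRNA shifted toward *Tpm2* and *Tpm4* while *Tpm1* stayed the main one. In each cell, the TPM of the 4 genes was summed and each gene expressed as a share of that sum. The sum had a median of 3823 TPM in control CM-like cells (2306 to 6530) and 6767 TPM in cKO cells (2676 to 13576). *Tpm1* made up a median of 93.3% of it in control cells (80.8% to 99.8%) and 80.1% in cKO cells (57.7% to 98.1%). Both batches showed the shift, from 94.6% to 80% in batch 1 and from 90.2% to 80.4% in batch 2. The share of *Tpm4* was 2.6% in control and 10.9% in cKO cells, and that of *Tpm2* 0.439% and 4.61%. *Tpm3* took 3.01% and 4.17%, with 2.21% and 4.29% in batch 1 but 4.24% and 3.87% in batch 2. These are shares of mRNA counted per length, and they say nothing of protein.

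**Figure D2:**
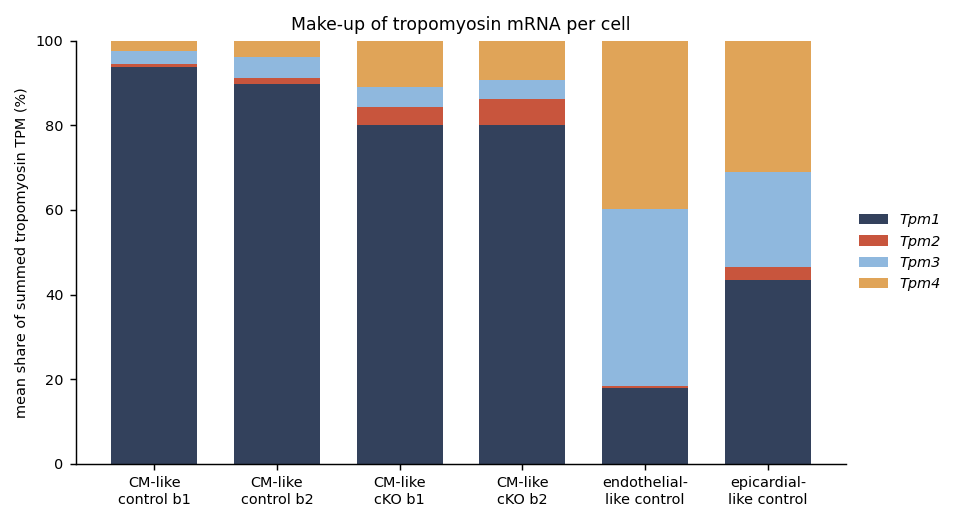
Stacked bars give the mean share of summed tropomyosin TPM (%, axis from 0 to 100) taken by *Tpm1* to *Tpm4* in CM-like cells of each genotype and batch (b1, b2) and in endothelial-like and epicardial-like control cells. The *Tpm1* share falls from means of 93.7% and 89.9% in control to 80.2% and 80% in cKO CM-like cells, and is 17.9% in endothelial-like cells.

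Caldesmon, from *Cald1*, blocks the myosin-binding face of actin in smooth muscle and stabilises filaments in other cells. Its difference was 4.36 log2 units, above that of *Tpm2* here but below it as a ratio of mean TPM (3.05 against 3.43), with 4.22 in batch 1 and 4.24 in batch 2. Control CM-like cells ran from 0 through a median of 10.2 to 134 TPM, and 18 of 26 (69.2%) were at 1 TPM or more. The cKO cells ran from 25.2 through 246 to 1367 TPM, and 65 of 65 were at 1 TPM or more. The lowest cKO cell was thus above the control median of both batches pooled, and 46 of 65 lay above the highest control cell. Within batch 2 the control median was 36.7 TPM, and 32 of 33 cKO cells lay above it. On the log2 scale the mean was 3.36 ± 2.69 in control and 7.72 ± 1.24 in cKO cells (SD across cells).

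Transgelin, an actin-bundling protein used as an early smooth muscle marker, was already abundant in control CM-like cells. *Tagln* ran from 4.67 through 581 to 1245 TPM in control and from 210.2 through 2000 to 5373 TPM in cKO cells. The low control values came from batch 1, whereas the batch 2 control cells ran from 243 to 829 TPM. Its difference of 2.12 was matched by 2.12 within batch 1 and 1.92 within batch 2, and 43 of 65 cKO cells exceeded the highest control cell. *Tagln* made up a median of 91.1% of summed transgelin TPM (*Tagln*, *Tagln2* and *Tagln3*) in control and 93.8% in cKO CM-like cells, and it was the main transgelin of both genotypes.

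The calponins bind actin and slow the myosin motor, *Cnn1* being the smooth muscle form and *Cnn2* a broadly expressed one. *Cnn1* ran from 0.609 through 98.3 to 404 TPM in control and from 12.5 through 601 to 1603 TPM in cKO CM-like cells. Its difference was 2.86, with 2.48 in batch 1 and 3.32 in batch 2, and 47 of 65 cKO cells (72.3%, interval 59.8% to 82.7%) lay above the control range. *Cnn2*, a gene whose promoter window held a CArG box, ran from 18.6 through 243 to 461 TPM in control and from 59.8 through 658 to 1842 TPM in cKO cells. The difference was smaller, 1.5 over all cells, with 1.31 and 1.58 in the batches. Of the summed TPM of *Cnn1*, *Cnn2* and *Cnn3*, the share of *Cnn1* had a median of 21.9% in control and 40.9% in cKO cells. Within batches these medians were 24.5% and 34.6% in batch 1, and 12.4% and 42.1% in batch 2.

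The regulatory light chain *Myl9*, the other gene with a CArG box in its window, did not reach the call, and its difference depended on which cells were compared. It ran from 108 through 2545 to 5967 TPM in control and from 169 through 3375 to 7964 TPM in cKO CM-like cells, a difference of 0.60, with 0.56 and 0.49 in the batches. It was 1.41 among cells with 100 TPM or more of *Tnnt2*, *Actc1* and *Myl7*, 1.6 with 4 clusters and 3.92 over all cells of each genotype, selections that hold 39, 34 and 74 control cells in place of 26. The difference of *Tpm1* moved likewise, to 1.14, 1.33 and 2.70. All cells of a genotype differ in make-up, since 26 of 74 control but 65 of 69 cKO cells were CM-like. For *Myl9* the counts of cells above the control range follow. In batch 1, 0 of 32 cKO cells exceeded the highest control cell of that batch, and in batch 2, 18 of 33 did. That cell stood at 5967 TPM among 18 control cells in batch 1 and at 3981 TPM among 8 in batch 2, so these counts cannot be compared. *Myl9* made up a median of 72% of the summed TPM of *Myl9*, *Myl12a* and *Myl12b* in control and 69.1% in cKO cells. *Mylk*, which encodes the smooth muscle and non-muscle kinase that phosphorylates these light chains, was close to absent from both genotypes. It was at 1 TPM or more in 2 of 26 control cells (7.69%, interval from 0.946%) and 7 of 65 cKO cells (10.8%, interval from 4.44%), and its highest value was 49.4 TPM, in 1 cKO cell. Its difference of 0.14 was no call. The gene is therefore the exception in a group whose other 9 genes were each at 1 TPM or more in 65 of 65 cKO CM-like cells.

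**Figure D3:**
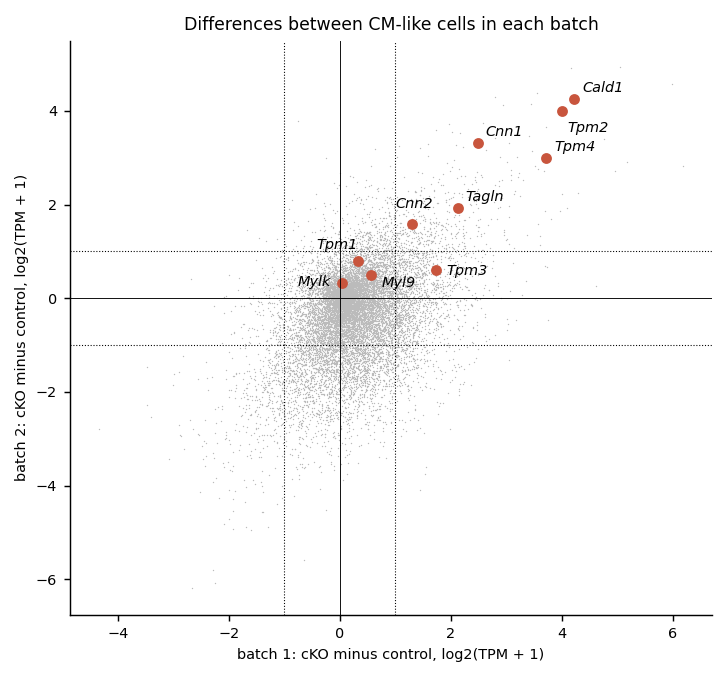
Each point is 1 of 14997 genes, with the cKO minus control difference in mean log2(TPM + 1) of CM-like cells in batch 1 (x axis) and batch 2 (y axis), the 10 genes in red and dotted lines at 1 and -1. Of the 10, 6 lie beyond both upper lines, led by *Cald1* at 4.22 and 4.24, and *Tpm3* passes only the batch 1 line.

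Every gene of the 10 but *Mylk* was at 100 TPM or more in at least 53 of 65 cKO CM-like cells, which also held cardiac transcripts. With 100 TPM as the level, cKO CM-like cells held a median of 9 of the 10 genes (6 to 9), and control CM-like cells a median of 6 (3 to 8). At least 8 of the 10 were at that level in 57 of 65 cKO cells (87.7%) and 1 of 26 control cells (3.85%). Such joint counts largely restate the level of each gene, on which the genes were chosen. They do not show that the genes rise together from cell to cell. The mean over the 10 genes was 6.45 ± 1.01 log2 units in control and 8.59 ± 0.63 in cKO cells (SD across cells). Of the cKO cells, 56 of 65 (86.2%, interval 75.3% to 93.5%) had a mean above the highest control CM-like cell. *Tnnt2* and *Actc1*, which encode cardiac troponin T and cardiac alpha-actin, served as class markers and were at 100 TPM or more in all 65 cKO and 26 control CM-like cells, so their presence beside any of the 10 genes was given by the class. *Tpm2* was at 100 TPM or more in 56 cKO and 3 control cells. Of those 56 cKO cells, 36 also had all of *Actc1*, *Tnnt2*, *Tnni3*, *Myh6*, *Myh7*, *Myl7* and *Ttn* at that level, as did 41 of all 65. For *Cald1* it was 35 of 53 cells, for *Tpm4* 38 of 62 and for *Cnn1* 37 of 61. Among control CM-like cells, 21 of 26 had all of these cardiac genes at that level, a larger share than in cKO cells.

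Among the cardiac genes the differences were of both signs, and some were larger than those of *Tpm1*, *Myl9* and *Mylk*. *Actc1* had a difference of 0.73 (0.65 and 0.77 in the batches), *Tnnt2* of 0.91 (0.51 and 1.32) and *Ttn*, the giant sarcomeric spring, of 1.42 (0.91 and 2.17). *Tnni3*, the adult cardiac troponin I, was lower in cKO cells by call, at -2.23 (-2.38 and -1.95). Taken as a log2 ratio to *Actc1* in the same cell, *Cald1* differed by 3.64 between the genotypes, *Tpm2* by 3.50, *Tpm4* by 2.74, *Cnn1* by 2.14 and *Tagln* by 1.4. By the same measure *Tpm1* stood at -0.15 (-0.31 and 0.02 in the batches) and *Myl9* at -0.12 (-0.09 and -0.28). *Cnn2* stood at 0.78, and *Tpm3* at 1.08 in batch 1 and -0.18 in batch 2. The sizes depended on the cardiac gene used. As a ratio to *Tnnt2*, *Cald1* differed by 3.45, *Tagln* by 1.21 (1.62 and 0.60 in the batches) and *Cnn2* by 0.59 (0.80 and 0.26). By that ratio *Tpm1* stood at -0.34 and *Myl9* at -0.31.

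**Figure D4:**
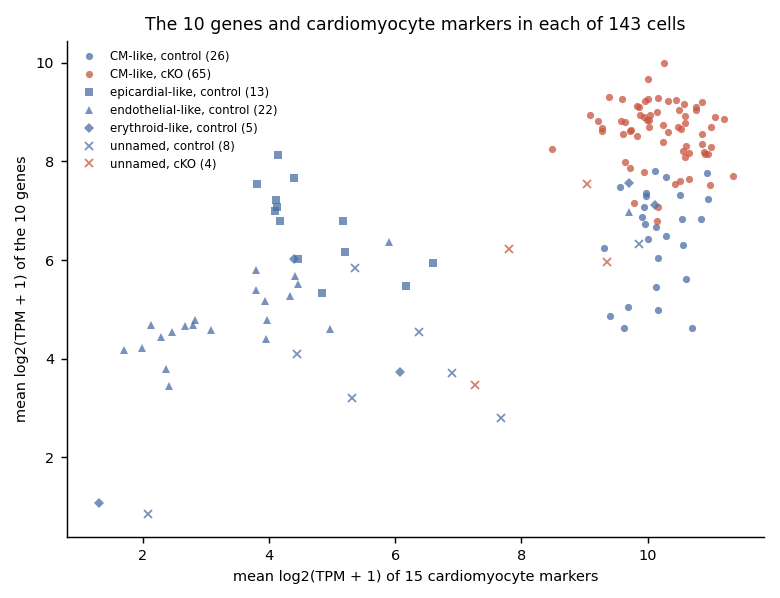
Each cell in the table is placed by its mean log2(TPM + 1) over 15 cardiomyocyte markers (x axis) and over the 10 genes (y axis), with control cells in blue, cKO cells in red and symbols for the cell classes. The CM-like cells of both genotypes overlap on the cardiomyocyte axis, and 56 of 65 cKO cells lie above the highest control CM-like cell in the mean of the 10 genes.

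Across cKO CM-like cells the 10 genes did not form 1 block. The points below are cells that share a sample, amplification and a fixed TPM total, and correlations are given as description. *Cnn1* went with *Myl9* (Spearman's rho = 0.75, Pearson's r = 0.75, n = 65 cells) and with *Cnn2* (rho = 0.73, r = 0.73), and *Tagln* with *Myl9* (rho = 0.71, r = 0.73). Each of these 3 pairs had rho of 0.59 or more in both batches. Over all 45 pairs the median rho was 0.28, with a range from -0.14 to 0.75, and 26 pairs were positive in both batches. Within batches the median was 0.34 in batch 1 and 0.05 in batch 2. *Tpm1* followed cardiac genes, with rho = 0.56 to *Tnnt2* and 0.52 to the mean of 8 cardiac genes (r = 0.62 and 0.49). *Tpm4* ran the other way, with rho = -0.29 to *Tnnt2* and -0.22 to the cardiac mean (r = -0.41 and -0.41), the same sign in both batches. The mean of the 10 genes had no relation to the cardiac mean (rho = 0.01, r = -0.01), and within batches rho was 0.03 and -0.15. *Tagln*, *Cnn1* and *Myl9* were lower in batch 2 cKO cells with more mitochondrial-genome TPM (rho = -0.61, -0.41 and -0.47, n = 33) but not in batch 1 (0.04, -0.04 and -0.05, n = 32).

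The same genes differed in where else they were found. Control endothelial-like cells had more *Tpm3* and *Tpm4* than control CM-like cells, with means of 9.19 and 9.07 log2 units against 6.42 and 5.58. In those cells *Tpm1* was down to a median share of 13.3% of tropomyosin TPM, with *Tpm3* at 41% and *Tpm4* at 42.6%. Epicardial-like cells had a mean *Tpm4* of 9.17, *Cald1* of 7.44 and *Tagln* of 7.65. In cKO CM-like cells the mean of *Cald1*, 7.72, and of *Tpm4*, 9.05, stood near those epicardial-like values. For *Tpm2*, *Tagln*, *Cnn1* and *Cnn2* the highest mean of any class was that of cKO CM-like cells. The same held for *Tpm1*, at 12.40, and *Myl9*, at 11.56. *Cnn1* averaged 8.98 there, 6.12 in control CM-like, 3.50 in epicardial-like and 1.47 in endothelial-like cells. *Tpm2* averaged 8.09 there and at most 4.75 in a control class. *Tpm1* and *Myl9* were cardiomyocyte-weighted, with *Myl9* at 10.96 in control CM-like and 3.58 in endothelial-like cells. *Mylk* stayed under 1 log2 unit on average in every class. Epicardial-like and endothelial-like cells are not free of cardiac transcripts: *Actc1* had a median of 811 TPM in the former and 96.8 TPM in the latter, and the part of carried-over RNA in their values was not tested.

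**Figure D5:**
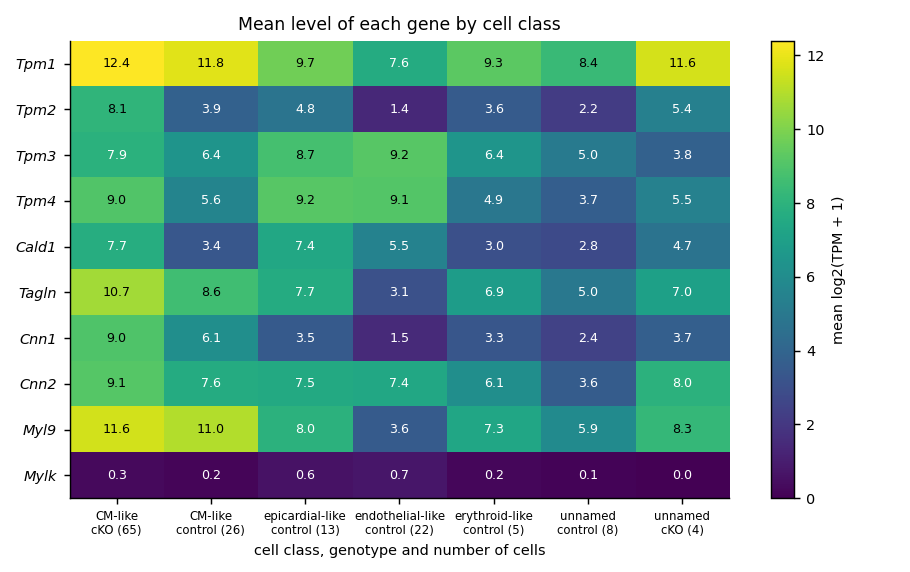
Mean log2(TPM + 1) of each of the 10 genes (rows) in each cell class and genotype (columns, number of cells in brackets), with the value printed in each field. *Tpm3* and *Tpm4* stand high in endothelial-like and epicardial-like control cells, at 9.19 and 9.07 in the former, while *Tpm2* and *Cnn1* are highest in cKO CM-like cells, at 8.09 and 8.98.

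Markers of other cell types were detected at low sums in most CM-like cells, and in batch 1 their medians were higher in cKO cells. These batch 1 medians of summed log2(TPM + 1) were 1.77 in control and 3.74 in cKO cells for mesenchymal, 6.03 and 10.6 for endothelial and 3.86 and 6.66 for epicardial markers. In batch 2 they were 4.36 and 4.3, 11.9 and 9.12, and 8.12 and 5.71, so the order turned, and the part of these transcripts in the differences was not tested beyond the set of cells below. The summed log2(TPM + 1) of 14 mesenchymal markers ran from 0.0628 to 25 in control and from 0.217 to 16.5 in cKO CM-like cells, and 0 of 14 were at 1 TPM in most cells of either genotype. For 13 endothelial markers the sums ran from 2.22 to 32.8 and from 1.91 to 22.5, with *Pecam1* and *Egfl7* detected in most cells of each genotype and *Cdh5* below 1 TPM in all of both. For 6 epicardial markers they ran from 0.385 to 30 and from 0 to 17.9, and *Wt1* alone was detected in most cells of each. Among CM-like cells with a low mean over these 3 lists (13 control, of which 1 in batch 2, and 22 cKO), the same 6 genes were called higher, beside 18.4% of all genes called higher in that set. Of the dissociation and stress genes, *Fos* differed by -0.75 in batch 1 and 3.79 in batch 2. *Atf3* was called higher and *Junb* lower among 9 such genes that passed, beside 3.02% and 2.81% of all genes over all CM-like cells. The part of these stress genes in the differences was not tested.

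Other smooth muscle contractile genes showed a mixed picture. Of 14 listed, 13 passed the filter, 3 were called higher and 1 lower, with a median difference of 0.92 (0.95 and 0.50 in the batches). Over all 14997 genes 3.02% were called higher and 2.81% lower. Counts in lists this short are given as description, here and for the mural markers below. *Acta2*, smooth muscle alpha-actin, differed by 1.17 (1.23 and 1.02), *Csrp1*, a LIM protein of the smooth muscle cytoskeleton, by 1.86 and *Tagln2* by 2.55, whereas *Tagln3*, the neuronal transgelin, stood at -1.94. The smooth muscle myosin heavy chain *Myh11*, a marker of differentiated smooth muscle, did not pass the filter and was at 1 TPM or more in 6 of 65 cKO and 0 of 26 control cells, where a count of 0 allows a share of up to 11.5% by the limit of 3 cells of 26. *Smtn*, another marker of the contractile state, was at -0.95 (-0.96 and -1.03), just short of the call. In the other direction *Pdlim7* was at 0.95 (0.95 and 0.92) and *Lmod1* at 0.92 (0.78 and 1.01), also short of it. Of the 13 genes that passed, 9 had positive differences in both batches. Of 11 smooth muscle and mural markers outside the 10 genes, 9 passed, 1 was called higher (*Acta2*) and 1 lower (*Abcc9*, a channel subunit, -1.68). In control hearts *Abcc9* averaged 2.36 log2 units in CM-like cells and 0.32 in the cells outside that class.

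In the light chain pathway, 2 of 18 genes that passed were called higher and 0 lower, with a median of 0.75 (0.95 and 0.34). For this list and those below, the shares of all genes are 3.02% higher and 2.81% lower, and the lists are too short for more than description. The genes called in the light chain pathway are named next. These were *Myl6*, the essential light chain of smooth muscle and non-muscle myosin, at 1.29 (1.15 and 1.39), and *Myl12b*, a non-muscle regulatory light chain, at 1.91 (2.14 and 1.16). *Mylk3*, the cardiac myosin light chain kinase, was present where *Mylk* was not, at 1 TPM or more in 25 of 26 control and 62 of 65 cKO cells, with a difference of 0.98 (0.96 and 1.09), short of the call. Among 10 thin filament partners that passed, *Lmod2*, which lengthens cardiac thin filaments, was higher by 2.31 (1.99 and 2.72) and *Tnni3* was the 1 called lower. The median of that list was 0.31 pooled but 0.45 and -0.05 in the batches. Of 7 genes for SRF and its cofactors, *Myocd*, which encodes myocardin, was the 1 called higher, at 2.03 (2.00 and 2.15), with 65 of 65 cKO and 23 of 26 control cells at 1 TPM or more. *Srf* itself differed by 0.35 (0.46 and 0.37).

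The genes whose levels most resembled the mean of the 10 across cKO CM-like cells were taken from 5868 other genes by the mean of the rho in both batches. They were *Lpp*, a focal adhesion protein of smooth muscle (0.59), *Myl6* (0.59), *Tgfb2*, a secreted growth factor (0.56), *Tgfb1i1*, a focal adhesion adaptor (0.55), and *Fkbp1a*, which binds ryanodine receptors (0.55), where the median gene had 0.07. Their differences between the genotypes ranged from 0.44 for *Fkbp1a* to 2.93 for *Tgfb2*. For *Tpm1* the closest were *Ankrd1* (0.65), *Myl7* (0.58) and *Tnnc1* (0.56), all genes of cardiac muscle, and for *Cald1* they were *Ttn* (0.46), *Ankrd11* (0.45) and *Mrpl21* (0.43). *Cnn1* was most like *Tsc22d1* (0.64), *Csrp3* (0.63) and *Surf4* (0.61), and *Tagln* most like *Prune2* (0.56), *Cryab* (0.54) and *Ube2j1* (0.51). For *Tpm2* they were *Igf2* (0.50), *Eif4g3* (0.45) and *Daam1* (0.41).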

How the data were processed

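Single cells from the ventricular part of E9.5 hearts were dissociated with trypsin and collagenase, picked by hand and amplified by Smart-seq2. The deposited values are TPM that the authors estimated in Salmon, with mm10 as the genome. The Salmon version and the gene annotation were not given in the sources used here. The authors kept cells with high mapping rates and a reporter pattern that matched the genotype. Of 170 labelled samples, 143 have a column, and the remaining 27 were not analysed here. All columns differed from each other. TPM divides by transcript length and cell total (996133 to 999999), keeps no depth and gives no count, so no count model was used. Amplified reads carry no molecular identifiers, and intervals cover counting error only.

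From these values log2(TPM + 1) was computed (Python 3.11.15, pandas 2.3.3, SciPy 1.17.1). Ward linkage of the z-scored levels of 55 markers gave 5 clusters. A cluster took a class name with at least 3 markers raised by 1 log2 unit, if no other class led its top 10 genes. No doublet caller was run on hand-picked cells. The members and gene lists were chosen with earlier results of these data known. Genes past the call rule were named, with at most 4 others of a list by mean TPM, and the 5 or 3 genes most alike in rank correlation. *Myh11*, *Smtn*, *Pdlim7*, *Lmod1*, *Mylk3* and *Srf* were added after their values were seen. The study's rank-sum test over cells was not used, since cells of 1 genotype are 1 sample. The code was tested on simulated data. GENCODE vM21 and RefSeq tables (both GRCm38) gave loci and sequences. Pseudocounts, filters, cell selections, rescaling and detection levels were varied.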

Additional observations from a re-analysis of the deposited data

How the results depend on the processing

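No paired analysis was possible because the labels do not say what the numbers in the titles stand for, and no test was run. Under 18 alternatives the count of members called higher lay within 1.5 times of 6, a wide band that includes the 4 called at 2 log2 units. Some alternatives could hardly change the count. With 6 clusters the CM-like cells were the same 26 control and 65 cKO cells, and the filters change no difference. Nothing is read from how steady the count was, since the genes were chosen from these data. The same 6 genes were called with pseudocounts of 0.1 and 10, rescaled or centred TPM, 6 clusters, clusters of variable genes and 7000 to 11000 detected genes; with 4 clusters *Myl9* was called too, with all cells *Tpm1* and *Myl9*, and at 2 log2 units only *Tpm2*, *Tpm4*, *Cald1* and *Cnn1*. The share of all genes called higher, 3.02% as reported, was 6.11% with 4 clusters, 3.89% with all cells, 5.79% and 1.02% at pseudocounts of 0.1 and 10, and 7.95% as a ratio of mean TPM. Of 120 differences of single members, 52 moved by more than the SD between the batch values, which is small for *Tpm2*, *Cald1* and *Myl9*, and 1 turned. The median difference of 1.81 became 1.68 as a ratio of mean TPM and 1.68 in clusters of variable genes, 2.57 with 4 clusters, 2.21 in cells with 100 TPM of *Tnnt2*, *Actc1* and *Myl7*, 2.80 in all cells, 2.31 with low markers of other classes and 2.12 over the 9 genes detected in most of the cells, which leaves out *Mylk*. The share of all genes was 6.00% under that filter, 1.12% without a filter and 0.56% at 2 log2 units. Over all cells of each genotype *Mylk* turned to -0.11; the cause was not tested. Added after the data were seen, cells with under 10% mitochondrial-genome TPM gave 6 genes, beside 2.48% of all genes. Batch 1 alone gave 7 and batch 2 alone 6, by a weaker rule that asks for the difference in 1 batch only. The share of all genes under that rule was not computed, so nothing is read from these counts. Of 40 detected shares at other levels, 5 moved, among them *Cald1* in control cells to 92.3% at any TPM above 0.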
